A study of Mus musculus with 7 samples.

Results

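The genes described here are 5 that encode proteins of the heart cell's surface membrane, the sarcolemma, which move sodium and calcium ions: Atp1b1 and Fxyd1 of the sodium pump, the sodium-calcium exchanger Slc8a1, and the calcium pumps Atp2b1 and Atp2b4. They were chosen by name, as a group of ion transporters, from the 24421 gene rows of a count table, and all 5 passed the filter on low counts that left 13295 genes. RNA came from the left atria of adult mice of the outbred CD1 stock, in 4 libraries labelled FOG2 overexpression and 3 labelled wild type. FOG2, encoded by Zfpm2, is a cofactor that binds GATA transcription factors, and the series as a whole concerns TBX5 and GATA4 in atrial fibrillation. All animals, controls included, had been off doxycycline for 1 week. The protocol codes the animals DTG and NTG without spelling the codes out. No source used here gives the promoter that drives the transgene or the number of animals behind each library. The comparison asks which of these transporter transcripts differed in atria with more FOG2.

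A heart cell keeps its sodium low with the sodium pump, an ATPase made of a catalytic alpha subunit, a beta subunit that carries the pump to the surface, and a small regulator of the FXYD family. Phospholemman, the product of Fxyd1, restrains the cardiac pump until it is phosphorylated. The sodium gradient then drives the exchanger encoded by Slc8a1, the main route by which calcium leaves a heart cell after each beat, and the exchange carries a net inward current. The plasma membrane calcium pumps encoded by the Atp2b genes use ATP directly and are thought to carry a small share of the calcium. Calcium is also taken back into the sarcoplasmic reticulum, within the cell, by the pump encoded by Atp2a2.

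Gene totals ran from 5562520 to 8655655 counts per library, and 1 read was worth 0.111 to 0.174 CPM, the count relative to the library total after TMM scaling. Zfpm2 was at 29.4 to 31.7 CPM in wild type and at 140.1 to 262 CPM in overexpression libraries, so it went with the labels. The value of 140.1 CPM belonged to overexpression replicate 1, and the other overexpression libraries had 222 to 262 CPM. Overexpression replicate 1 stood apart: it correlated with the other overexpression libraries at r = 0.947 to 0.949 across genes, and each of the others had a partner at 0.983. Transcripts of the Y chromosome reached 557 CPM in wild type replicate 2 and 545 CPM in overexpression replicate 1 and at most 0.578 CPM elsewhere, so libraries of both kinds occur in each group. All 8 cardiomyocyte markers were expressed, and in wild type the atrial gene Sln stood at 3201 CPM. The 8 cardiomyocyte markers summed to 114551 to 137428 CPM in wild type and to 74773 to 109273 CPM in overexpression. The 8 smooth muscle and pericyte markers summed to 357 to 449 CPM in wild type and to 1150 to 1655 CPM in overexpression. Most of that difference was Acta2, at 15.3 to 36.2 CPM in wild type and 681 to 1035 CPM in overexpression, and the other 7 summed to 341 to 412 CPM and to 469.8 to 620.4 CPM. Among nerve and Schwann cell markers Th was at 0 in every library.

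Slc8a1 was the member that fell. It had 1175, 1385 and 1266 CPM in wild type replicates 1 to 3 and 766, 511, 719 and 734 CPM in overexpression replicates 1 to 4. Every overexpression library lay below every wild type library, with overexpression replicate 2 the lowest. The mean went from 1275 ± 106 (SD, n = 3) to 683 ± 116 CPM (SD, n = 4), which is 1.87-fold lower. The log2 fold change was -0.90 with an SE of 0.15, and edgeR's quasi-likelihood test gave a Benjamini-Hochberg adjusted p of 0.0111. The 95% interval of the log2 fold change ran from -1.25 to -0.56. Without wild type replicate 2, the highest library, it was -0.84 with an adjusted p of 0.0648, and without overexpression replicate 1 it was -0.96 with an adjusted p of 0.00304. In whole atria, fewer cells of a type and less RNA per cell cannot be told apart. The sum of the cardiomyocyte markers was lower in overexpression too, with a median of -0.37. Of the 8, 2 were called, Mybpc3 and Ryr2, beside 4.84% of all tested genes. The largest in that sum were Ttn and Myh6, with wild type means of 74321 and 27615 CPM. They were at -0.41 and -0.40 (adjusted p = 0.291 and 0.282). Fibroblast markers had a median of 0.60 with 0 of 8 called, and their sum was 6673 to 9994 CPM in wild type and 9283 to 16143 CPM in overexpression, highest in replicate 1. The part of fibroblasts in the fall of Slc8a1 was not tested. With libraries scaled to 15 sarcomere genes Slc8a1 was still lower, at -0.48 (adjusted p = 0.0437). Of those 15 genes 2 were themselves called lower under TMM scaling, Mybpc3 (-2.15) and Myom2 (-1.03), so that scale is not a neutral reference.

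The other 4 members did not pass the test, so the count was 0 higher and 1 lower of 5. Over all tested genes 4.84% were called, 1.55% higher and 3.29% lower, and 19.2% had an unadjusted p under 0.05. The median log2 fold change of the members was -0.11 and that of all tested genes 0.02. Groups that did not overlap were found for 1 of 5 members and for 19.8% of all tested genes, 10.8% with overexpression below and 8.99% with it above.

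**Figure D1:**
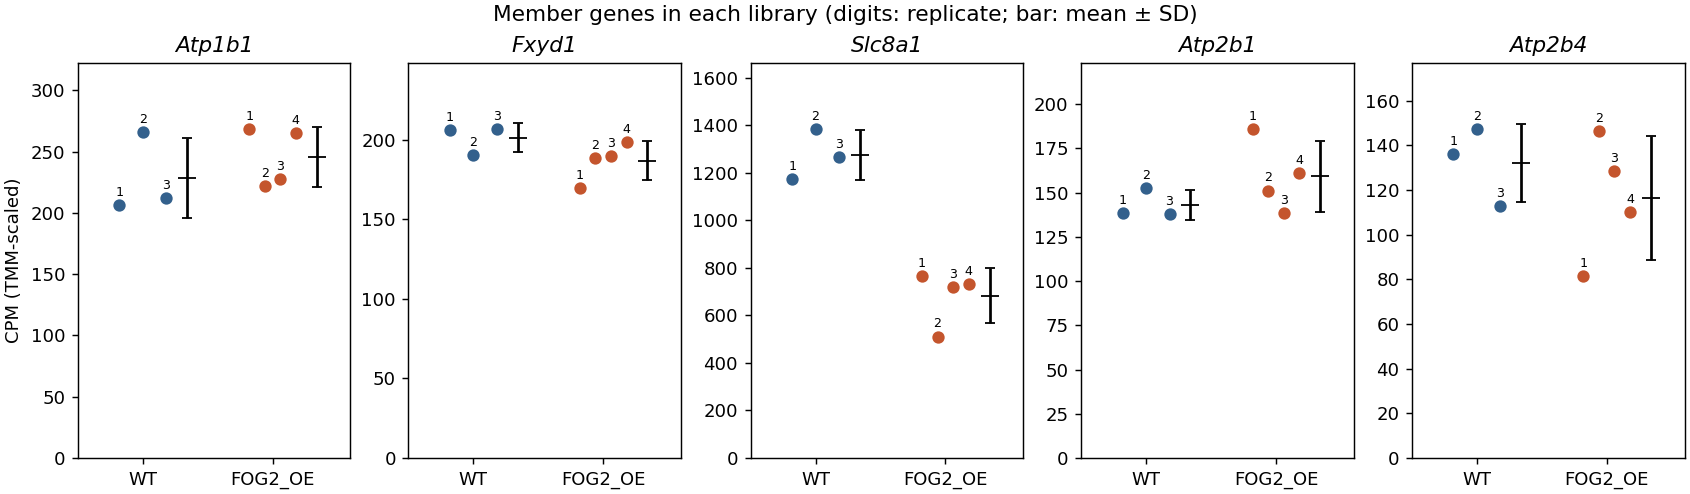
TMM-scaled CPM of the 5 member genes in each library, with wild type (WT) in blue and FOG2 overexpression (FOG2_OE) in orange; digits give the replicate and the black bar the mean ± SD. The groups separate for Slc8a1, at 1175 to 1385 against 511 to 766 CPM, and overlap for the other 4.

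The promoter of Slc8a1 is shown because this member changed and because FOG2 acts through GATA factors; that of Slc8a3, the exchanger gene that rose, is shown beside it. Both are the 250 bases before the gene start in RefSeq, build GRCm38.p6, read 5′ to 3′ on the gene's own minus strand, at chr17:81738388-81738637 for Slc8a1 and chr12:81333181-81333430 for Slc8a3. Capitals mark matches, on either strand, to the GATA words: AGATAA, its variant AGATAG, the word TGATAA and its variant TGATAG.
Slc8a1: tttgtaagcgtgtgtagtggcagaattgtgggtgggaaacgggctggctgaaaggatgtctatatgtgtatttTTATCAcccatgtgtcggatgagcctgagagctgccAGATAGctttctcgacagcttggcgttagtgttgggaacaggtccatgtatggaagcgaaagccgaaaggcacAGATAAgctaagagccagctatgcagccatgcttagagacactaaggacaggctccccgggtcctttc
Slc8a3: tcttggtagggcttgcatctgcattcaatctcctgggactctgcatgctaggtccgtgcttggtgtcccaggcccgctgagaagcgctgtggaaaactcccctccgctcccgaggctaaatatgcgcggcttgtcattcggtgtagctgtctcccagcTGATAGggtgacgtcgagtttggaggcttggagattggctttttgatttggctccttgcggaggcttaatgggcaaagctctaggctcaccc

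The Slc8a1 window held 3 matches, whose first bases lay 177, 141 and 68 bases before the start, the first of them on the opposite strand. The Slc8a3 window held 1 match, at 92 bases. Of 32851 RefSeq promoter windows of this length, 26.5% held at least 1 match and 1.35% at least 3. Among the other members, the Atp2b4 window held 1 match and those of Atp1b1, Fxyd1 and Atp2b1 (2 starts) held 0. The windows of Atp2b4 (chr1:133753748-133753997) and Fxyd1 (chr7:31054854-31055103) lie inside the GENCODE gene models given below. They belong to internal starts, and the outer starts of these genes were not searched. The T-box word AGGTGT, searched on both strands, was in none of the windows of the members or of Slc8a3 and in 11.8% of all windows. A match to these letters is a description and not a measured binding site.

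The exchanger family changed in both directions. Slc8a3, an exchanger better known from skeletal muscle and brain, rose from near absence: counts were 4 to 14 per library in wild type and 71 to 120 in overexpression. That is 1.67, 0.565 and 0.739 CPM in wild type replicates 1 to 3 and 9.33, 10.3, 13.7 and 13.96 CPM in overexpression replicates 1 to 4. No libraries of the groups overlapped. Of the 8 smooth muscle and pericyte markers 3 were called higher, beside 1.55% of all tested genes. Groups did not overlap for 5 of the 8, beside 19.8% of all tested genes. The part of these cells in the rise of Slc8a3 was not tested. The log2 fold change was 3.53 ± 0.36 (adjusted p = 7.36e-04), or 11.5-fold, with a 95% interval of 6.58 to 20.2-fold, and it stayed called without any single library (adjusted p up to 0.00587). Slc8b1, the exchanger of the mitochondrial inner membrane, stood at 15.1 ± 2.23 CPM in wild type against 15.1 ± 2.33 CPM in overexpression (log2 fold change -0.01 ± 0.17, adjusted p = 0.980). Slc8a2 was below the count filter at no more than 0.698 CPM in any library.

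Set against each other per length of gene model, Slc8a3 remained a small part of the exchanger transcripts. Its share of the summed CPM per kilobase of Slc8a1 and Slc8a3 was 0.283% ± 0.190 in wild type (SD, n = 3) and 5.83% ± 1.15 in overexpression (SD, n = 4). The sum of both was 67.99 ± 5.51 CPM per kilobase in wild type and 38.5 ± 6.31 in overexpression. The rise of Slc8a3, from 0.186 to 2.22 CPM per kilobase, was thus small beside the fall of Slc8a1 from 67.8 to 36.3 on the same scale. These lengths are the merged exons of all annotated transcripts (18.8 kb for Slc8a1, 5.33 kb for Slc8a3), so levels per kilobase are approximate where an atrium uses shorter forms.

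**Figure D2:**
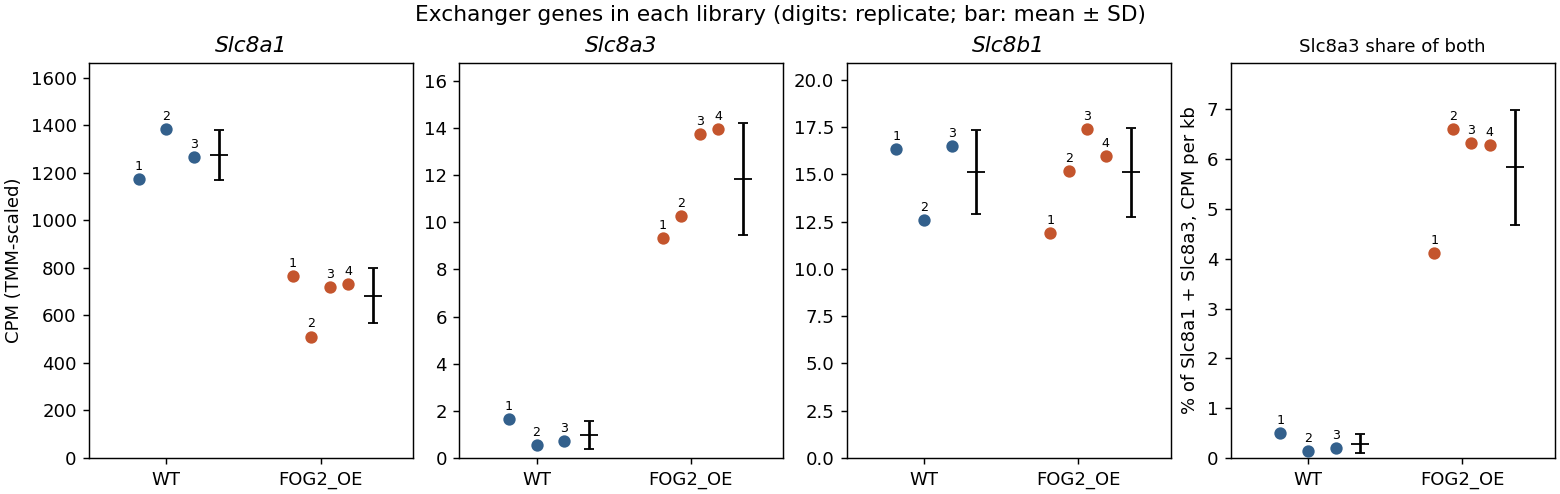
TMM-scaled CPM of Slc8a1, Slc8a3 and Slc8b1 in each library, and at right the share of Slc8a3 in the summed CPM per kilobase of Slc8a1 and Slc8a3; digits give the replicate and black bars the mean ± SD. Slc8a1 was lower and Slc8a3 higher in all 4 overexpression libraries, where the Slc8a3 share was 4.12% to 6.61%.

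Atp1b1, the main beta subunit of the cardiac sodium pump, stood at 206, 266 and 212 CPM in the wild type replicates, against 268, 222, 228 and 265 CPM in the overexpression replicates. The groups overlapped, since wild type replicate 2 was nearly as high as overexpression replicate 1. The log2 fold change was 0.11 ± 0.13 (adjusted p = 0.683), with a 95% interval from -0.17 to 0.39, that is 0.886 to 1.31-fold. Exons of Atp1b1 share 575 bases with exons of Nme7 on the other strand in GENCODE M21; with no strand setting stated, reads of the genes cannot be told apart there.

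Fxyd1 was the most even member. It stood at 206, 191 and 207 CPM in the wild type replicates, against 170, 189, 190 and 199 CPM in the overexpression replicates. Wild type replicate 2 lay among the overexpression libraries, and overexpression replicate 1 was the lowest. The means were 201 ± 9.18 CPM (SD, n = 3) and 187 ± 12.1 CPM (SD, n = 4), a log2 fold change of -0.11 ± 0.09 (adjusted p = 0.566). The 95% interval, 0.803 to 1.07-fold, ended above the 0.535-fold of Slc8a1. Of the 7 FXYD genes, Fxyd1 included, 5 were tested, none passed, and the median of those tested was 0.05. Fxyd5 (dysadherin) was at 0.55 ± 0.30, and Fxyd6 at 0.05 ± 0.17.

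Of the other beta subunits, Atp1b3 was at 118 CPM in both groups (0.00 ± 0.11), and Atp1b2 at 5.70 ± 1.44 and 3.66 ± 1.11 CPM (-0.65 ± 0.31, adjusted p = 0.294).

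Atp2b1, a calcium pump found in most tissues, stood at 138, 153 and 138 CPM in the wild type replicates, against 186, 151, 139 and 161 CPM in the overexpression replicates. Only overexpression replicates 1 and 4 exceeded every wild type library. Its log2 fold change was 0.16 ± 0.11 (adjusted p = 0.495, 95% interval 0.932 to 1.33-fold) and 0.07 without overexpression replicate 1.

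Atp2b4, the pump form tied in heart to nitric oxide signalling, stood at 136, 147 and 113 CPM in the wild type replicates, against 81.3, 146, 128 and 110.1 CPM in the overexpression replicates. It was the member with the widest spread in overexpression relative to its mean, and replicate 1 was the lowest library. The log2 fold change was -0.18 ± 0.19 (adjusted p = 0.643, interval 0.655 to 1.19-fold), and -0.04 without overexpression replicate 1. Atp2b2 stood at 14.5 ± 4.97 and 13.3 ± 0.704 CPM (-0.12 ± 0.21), and Atp2b3 was below the filter. None of the 3 tested pumps of this family passed.

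Compared per kilobase of gene model in wild type, the order of levels was Fxyd1 at 92.1 ± 4.20 CPM per kilobase, Atp1b1 at 74.0 ± 10.6, Slc8a1 at 67.8 ± 5.61, Atp2b4 at 10.8 ± 1.44 and Atp2b1 at 9.39 ± 0.556 (SD, n = 3). Atp1b1 and Slc8a1 did not differ beyond their spread, nor did the calcium pumps. That spread is between libraries and leaves out any error in the lengths, which are merged exons of all annotated transcripts. The order between genes is therefore approximate. In overexpression Fxyd1 (85.4 ± 5.54) and Atp1b1 (79.7 ± 7.95) were within their spread of each other, while Slc8a1 (36.3 ± 6.17) lay apart from Atp1b1. Atp2b1 (10.5 ± 1.32) and Atp2b4 (9.52 ± 2.27) again overlapped (SD, n = 4).

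Ratios between members within a library do not depend on scaling between libraries; they were taken from log2 CPM, which includes a small prior count. The CPM of Slc8a1 was 5.21 to 5.95 times that of Atp1b1 in wild type and 2.31 to 3.15 times in overexpression, with no overlap. The log2 ratio differed by -1.03 (exact permutation test of the absolute difference over 35 assignments, two-sided, p = 0.0286, the smallest this design allows, Benjamini-Hochberg adjusted p = 0.114 over 4 ratios). The ratio of Slc8a1 to Atp2a2, the reticulum pump that competes with the exchanger for calcium, was 0.1002 to 0.107 in wild type and 0.103 to 0.144 in overexpression (log2 difference 0.27, exact permutation p = 0.114, adjusted 0.229). Overexpression replicate 3 lay within the wild type range and the other overexpression libraries above it. Atp2a2 itself fell from 12385 ± 1293 to 5502 ± 1138 CPM, a log2 fold change of -1.17 ± 0.18 beside -0.90 ± 0.15 for Slc8a1.

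The ratio of Fxyd1 to Atp1b1 ran from 0.718 to 0.999 in wild type and from 0.633 to 0.852 in overexpression (log2 difference -0.22, exact permutation p = 0.286, adjusted 0.343). That of Atp2b4 to Atp2b1 ran from 0.819 to 0.984 and from 0.438 to 0.969 (log2 difference -0.35, exact permutation p = 0.343, adjusted 0.343). Its low value of 0.438 belonged to overexpression replicate 1, and the log2 difference was -0.11 without that library.

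**Figure D3:**
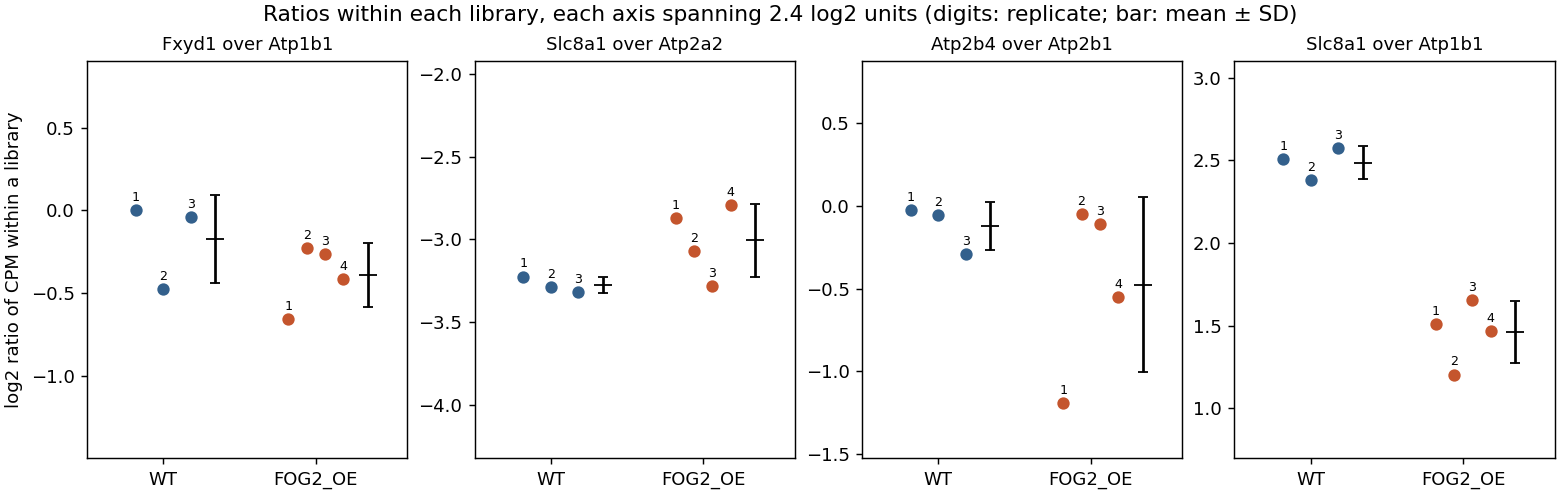
The log2 ratio of CPM of 2 genes within each library, for 4 pairs; every vertical axis spans the same number of log2 units, digits give the replicate and black bars the mean ± SD. The groups separate for Slc8a1 over Atp1b1, with 2.38 to 2.57 in wild type and 1.21 to 1.66 in overexpression, and overlap for the other pairs.

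Of 44 genes on lists of pumps, exchangers, their partners and related transporters, 36 were tested; 1 rose, 6 fell and 29 did not pass, which is 19.4% called beside 4.84% of all tested genes. Their median log2 fold change was 0.04, and that of all tested genes 0.02. With sarcomere scaling the balance turned, to 10 higher and 5 lower. The lists were chosen with results of these data known, so the count is a description. Besides Slc8a3, Slc8a1 and Atp2a2, those called were the regulators of Atp2a2, Pln (phospholamban, -1.21 ± 0.15, adjusted p = 0.00225) and Sln (sarcolipin, -1.58 ± 0.15, adjusted p = 6.10e-04), with Slc4a3 and Bsg. The reticulum pump list had 3 of 5 lower. The others on it were Atp2a1 at 0.54 ± 0.47 (adjusted p = 0.579) and Atp2a3 at 0.11 ± 0.26 (adjusted p = 0.858). Leaving out single libraries gave 0.26 to 0.85 for Atp2a1, with adjusted p from 0.0198 to 0.790 and a call in 1 of 7 fits. Its overexpression libraries were uneven, at 19.7 CPM in replicate 1 and 64.1 to 104 CPM in the others.

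Slc4a3, which exchanges chloride for bicarbonate and so loads the cell with acid, fell from 161 ± 6.99 to 75.0 ± 13.9 CPM (-1.10 ± 0.14, adjusted p = 0.00277). Its libraries ran from 155 to 168 CPM in wild type and from 56.6 to 89.6 CPM in overexpression. It was the 1 called gene of 9 tested on the list of acid and chloride transporters and their regulators, not all of which are coupled to sodium. The sodium bicarbonate cotransporter Slc4a4, which brings bicarbonate into the cell with sodium, was at -0.34 ± 0.15 (adjusted p = 0.264).

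Among partners and anchors 1 of 7 was called. Basigin, encoded by Bsg and known as a subunit that membrane calcium pumps can assemble with, fell from 564 ± 30.0 to 411 ± 16.3 CPM (-0.46 ± 0.10, adjusted p = 0.0287). That call was lost without wild type replicates 1, 2 or 3 (adjusted p = 0.0777, 0.141 and 0.102) or overexpression replicates 3 or 4 (0.0763 and 0.0619), with library totals only (0.0739), and with sarcomere scaling, where the value was -0.02. Neuroplastin, the related subunit encoded by Nptn, was at 0.09 ± 0.11. Ank2, whose product ankyrin-B anchors the pump and the exchanger, was at -0.19 ± 0.20 (adjusted p = 0.640).

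**Figure D4:**
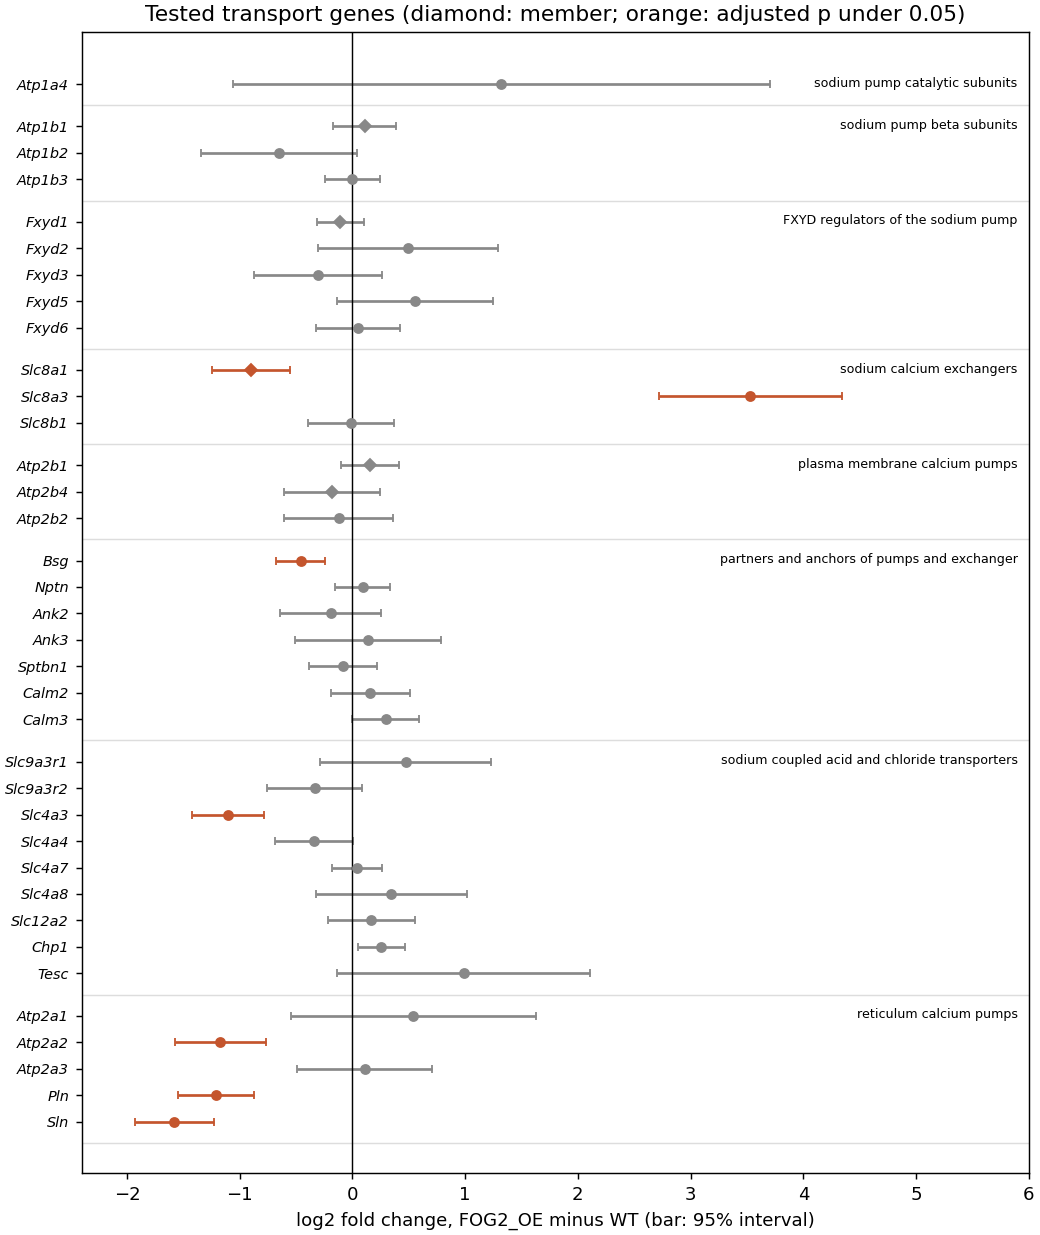
Log2 fold change, overexpression minus wild type, of the 36 tested transport genes by list, with 95% intervals; diamonds are members and orange marks an adjusted p under 0.05. The 6 lower genes include 1 member, Slc8a1 at -0.90, and the only higher one is Slc8a3 at 3.53.

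The sign of Fxyd1 and Atp2b4 changed with the scaling, and that of Atp1b1 and Atp2b1 did not. Library totals only moved the median of all genes to 0.15 and Fxyd1 to 0.01. Scaling to the sarcomere genes moved that median to 0.45 and the calls from 206 higher and 438 lower to 3023 higher and 187 lower (94.2% higher). Under TMM scaling the sarcomere genes had a median of -0.25, with 2 of 15 called lower, so their scale is not neutral. On that scale Atp1b1 was at 0.55 (adjusted p = 0.0271), Atp2b1 at 0.59 (adjusted p = 0.0248), Fxyd1 at 0.31 and Atp2b4 at 0.27 (adjusted p = 0.155 and 0.306), and Slc8a1 stayed lower. The 4 other members lay between 0.27 and 0.59, around the shifted median of 0.45, and Slc8a1 lay below the median. A change of scaling moves all genes by nearly the same amount. The place of a gene relative to the median is therefore no separate support.

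**Figure D5:**
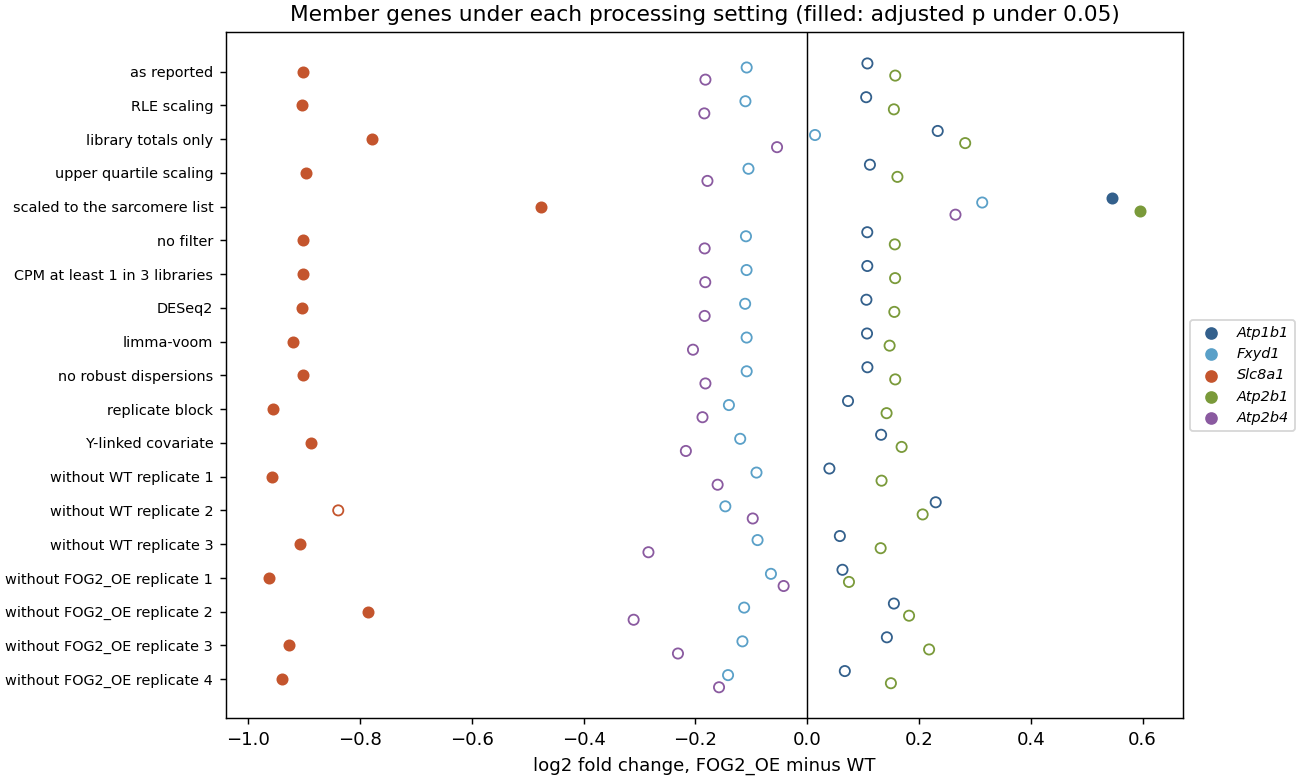
Log2 fold change of the 5 members under each processing setting; filled circles have an adjusted p under 0.05. Slc8a1 lies between -0.96 and -0.48 throughout and is open only without wild type replicate 2; Atp1b1 and Atp2b1 are filled only with sarcomere scaling.

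The genes most like each member were taken by Pearson's r of log2 CPM over the 7 libraries, among 9301 other genes with a mean of at least 10 CPM. The libraries, their depth and the group difference are shared by all genes, so r is a description only. Nearest to Slc8a1 were Gmpr (r = 0.994), Pgpep1 (0.991) and Slc4a3 (0.983). All of these were lower in overexpression: Gmpr, guanosine monophosphate reductase, by a log2 fold change of -0.54 ± 0.11 (adjusted p = 0.0297), and Pgpep1, a peptidase, by -0.46 ± 0.11 (adjusted p = 0.0429).

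The other members lay nearest to genes that were not called. For Atp1b1 these were Phrf1 (r = 0.966), Gas2l1 (0.953) and Tada2b (0.937), and for Fxyd1 Gpn3 (0.989), Fam133b (0.973) and Zfp62 (0.971). Those nearest to Atp2b1 were Ywhaz (0.983), Nptn (0.982) and Megf9 (0.975), of which Nptn is on the partner list. Those nearest to Atp2b4 were Edc3 (0.992), Kxd1 (0.988) and Gnptab (0.985).

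By annotation (GENCODE M21, build mm10) Slc8a1 (ENSMUSG00000054640) lies on the minus strand of chromosome 17 from 81373105 to 81738377, Atp1b1 on the minus strand of chromosome 1 from 164437109 to 164458355, and Fxyd1 on the minus strand of chromosome 7 from 31051678 to 31057199. Atp2b1 occupies 98914406 to 99026143 of chromosome 10, plus strand, and Atp2b4 on the minus strand of chromosome 1 from 133699457 to 133801041. The table gives 1 count per gene, so promoters and splice forms of Slc8a1 or the Atp2b genes are not separated.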

How the data were processed

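The authors deposited 1 table of whole-number read counts per gene for 7 libraries; STAR, HTSeq 0.6.0, DESeq2 and build mm10 are named, without roles, per the submitters' processing notes. No source used here gives the strand setting or annotation. One label calls the libraries polyA sequencing while the labels' protocol names ribosomal RNA removal. The 6 rows that name no gene were left out; rows naming a gene held 27.8% to 33.1% of reads. Every column was mapped by name.

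Genes were filtered with filterByExpr (minimum count 10, minimum total 15), TMM-scaled and compared by edgeR 4.0.16 under R 4.3.3 (quasi-likelihood F test, robust, two-sided, no covariate), with Benjamini-Hochberg adjustment over all 13295 genes and a threshold of 0.05. The SE is the size of the log2 fold change divided by the square root of F, and 95% intervals use its t distribution. Log2 CPM used a prior count of 2. The labels do not say that libraries are separate animals, so p-values measure the spread between libraries. Members and lists were chosen with earlier results of these data known; genes named are the members, genes of the lists, and the 3 genes most like each member. Some genes of the lists are not reported here and are left out of the list counts. The fit was tested on simulated counts. Alternatives are given in the closing section, and used DESeq2 1.42.0 and limma 3.58.1 among others.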

Additional observations from a re-analysis of the deposited data

Results flagged for a closer look

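In 2 of 36 transport genes screened, 1 of the 4 overexpression libraries lay far from the rest, by a gap over 0.829 of the group's range; chance flags about 1 in 20 groups. Slc9a3r2, a scaffold of membrane transporters, was at 69.6 CPM in overexpression replicate 3 and 53.3 to 54.2 CPM in the others. Slc4a4 was at 83.0 CPM in overexpression replicate 2 and 53.2 to 57.5 CPM in the others, with 76.8 to 82.5 CPM in wild type. Without overexpression replicate 2 its log2 fold change was -0.51 (adjusted p = 0.0295), against -0.34 (adjusted p = 0.264) with all libraries. That library was picked for its distance from the others, so the lower p-value is no support for a change.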

How the results depend on the processing

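Over 18 alternatives, Slc8a1 kept its direction in all and its call in 17, the exception being the fit without wild type replicate 2; Slc8a3, Slc4a3, Atp2a2, Pln and Sln kept direction and call in all 18. Leaving out single libraries gave -0.96 to -0.78 for Slc8a1 and 256 to 1151 genes called in all, against 644. DESeq2 called 1141 genes; sarcomere scaling called 3210, and 15 transport genes (10 higher, 5 lower) in place of 7 (1 higher, 6 lower). With sarcomere scaling Atp1b1 was at 0.55 and Atp2b1 at 0.59, both called, and Fxyd1 (0.31) and Atp2b4 (0.27) changed sign, as did Fxyd3 (0.13), Slc8b1 (0.40), Atp2b2 (0.34), Ank2 (0.23), Sptbn1 (0.34), Slc9a3r2 (0.11) and Slc4a4 (0.11). That scaling moved the median of all genes from 0.02 to 0.45. With library totals only Fxyd1 (0.014), Slc8b1 (0.11), Atp2b2 (0.012) and Sptbn1 (0.038) changed sign. Atp1b3, at 0.00, was at -0.00257 with RLE, -0.00116 with no filter, -0.000204 with the CPM filter, -0.00185 with DESeq2 and -0.00762 with limma-voom.

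Deviations of same-numbered libraries correlated at 0.0789, 0.0136 and 0.0720, and those of differently numbered libraries at -0.101 to 0.152. With so few libraries these values do not settle whether replicate numbers pair the libraries. With the replicate block 382 genes were called, Slc8a1 was at -0.96 (adjusted p = 0.0463), Bsg lost its call (-0.46, adjusted p = 0.121), and Ank3 (-0.19) and Atp2a3 (-0.00578) changed sign, neither being called. Without single libraries, sign changes occurred in genes that were not called: Atp1b3 (-0.0862 to 0.0467), Fxyd6 (-0.0863 to 0.24), Slc8b1 (-0.13 to 0.0888), Atp2b2 (-0.34 to 0.16), Ank3 (-0.18 to 0.29), Slc4a7 (-0.0452 to 0.11) and Atp2a3 (-0.0763 to 0.43). A gene not called with 3 and 4 libraries may still differ, within the intervals given.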
